A study of Mus musculus with 8 samples.

Results

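The genes described here are 10 regulators of the G1 phase of the cell cycle: the D-type cyclins Ccnd2 and Ccnd3, their partner kinases Cdk4 and Cdk6, the inhibitors Cdkn1b, Cdkn2c and Cdkn2d, the pocket proteins Rb1 and Rbl1, and the transcription factor E2f1. They were taken by name, through their Ensembl IDs, from a table of 21859 mouse gene IDs, and all 10 had counts high enough to be tested. RNA was sequenced from 8 cultures of PER-M60, a single mouse leukaemia line, so every culture shares the genetic make-up of that line. Of these cultures 4 are labelled as grown in control media and 4 in osteoclast-conditioned media, that is, medium taken from bone-resorbing cells. No genotype, dose or duration of exposure is stated for either group, and p-values below measure the spread between cultures of this single line. The question posed by the design is how the transcripts of the leukaemia cells differ between these media.

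D-type cyclins bind CDK4 or CDK6, and the active kinases phosphorylate the retinoblastoma (RB) family of pocket proteins. Phosphorylated RB releases E2F factors, which switch on genes for DNA replication. INK4 proteins (Cdkn2c and Cdkn2d among them) bind CDK4 and CDK6 directly, whereas CIP/KIP proteins such as the product of Cdkn1b mainly restrain cyclin E with CDK2. In early B cells cyclin D3 is the D-type cyclin known to be needed for the expansion of precursors that carry a pre-B cell receptor, and CDK6 is prominent in blood cells.

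Total counts per culture ran from 15391754 to 21637966. A level is given below as normalised CPM, the count scaled to CPM after library totals were corrected for composition. In counts simulated at the same depth, 28% of genes changed 1.1-fold and 78% of those changed 1.2-fold were called. Only 50 genes were changed at each fold there. In the data 30.5% of tested genes were called, so these rates need not carry over to the fit below. Control replicate 2 and osteoclast-conditioned replicate 4 lay at opposite ends of the second principal component (14% of the variance), so results were also computed without them. The mitochondrial share of counts was 0.903% to 1.16% in control and 1.16% to 1.44% in osteoclast-conditioned cultures, with these same cultures at its lowest and highest values. Its part in the results below was not tested. B-lineage markers were abundant (a sum of 3826 to 3846 normalised CPM in control and 4025 to 4055 in osteoclast-conditioned medium over 8 genes). T-cell markers summed to at most 0.175. The myeloid marker Cd14 and the osteoclast markers Dcstamp and Ocstamp, which no other gene of the table overlaps, had 0 counts in all cultures, which allows up to 0.138 to 0.194 normalised CPM per culture (3 counts). Rag1 and Itgam were also listed at 0, but other genes of the table cover 100% and 99.9% of their spans, so their zeros give no measure of expression. The sum over 5 myeloid markers, nearly all of it Lyz2, was 4.06 to 4.98 in control and 5.34 to 6.95 in osteoclast-conditioned medium. The sum over 9 osteoclast markers, nearly all of it Acp5, was 22.2 to 25.4 and 23.7 to 27.3. Over all marker lists, 10 of 32 genes were tested, 6 called higher and 1 lower, where 15.7% and 14.8% of all tested genes were. The part of RNA from other cells in the results below was not tested.

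The G1 genes did not move as a block. Ccnd2, Cdk6 and Rb1 were higher in osteoclast-conditioned medium, while Ccnd3, Cdk4, Cdkn1b and Cdkn2d were lower, so that within the cyclin pair and within the kinase pair the partners moved in opposite directions. Cdkn2c, Rbl1 and E2f1 did not pass the test. Differences were small, the largest being the rise of Cdk6 (log2 fold change 0.26, SE 0.03). With edgeR's quasi-likelihood test and Benjamini-Hochberg adjustment over all 10729 tested genes, 3 of the 10 were called higher and 4 lower (threshold 0.05). Without control replicate 1 these counts were 2 and 2. Across the whole table, 15.7% were called higher, 14.8% lower and 30.5% in either direction. The cultures of the 2 media did not overlap for 6 of the 10, against 28.2% of all tested genes. The median log2 fold change was -0.07 over the 10 and -0.01 over all tested genes. With library totals alone as the scaling, 40.7% of all called genes were higher, against 51.6% in the main fit, and the 7 called members kept their directions. Because whole cultures were sequenced, less RNA per cell and fewer cells carrying a transcript cannot be told apart.

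**Figure D1:**
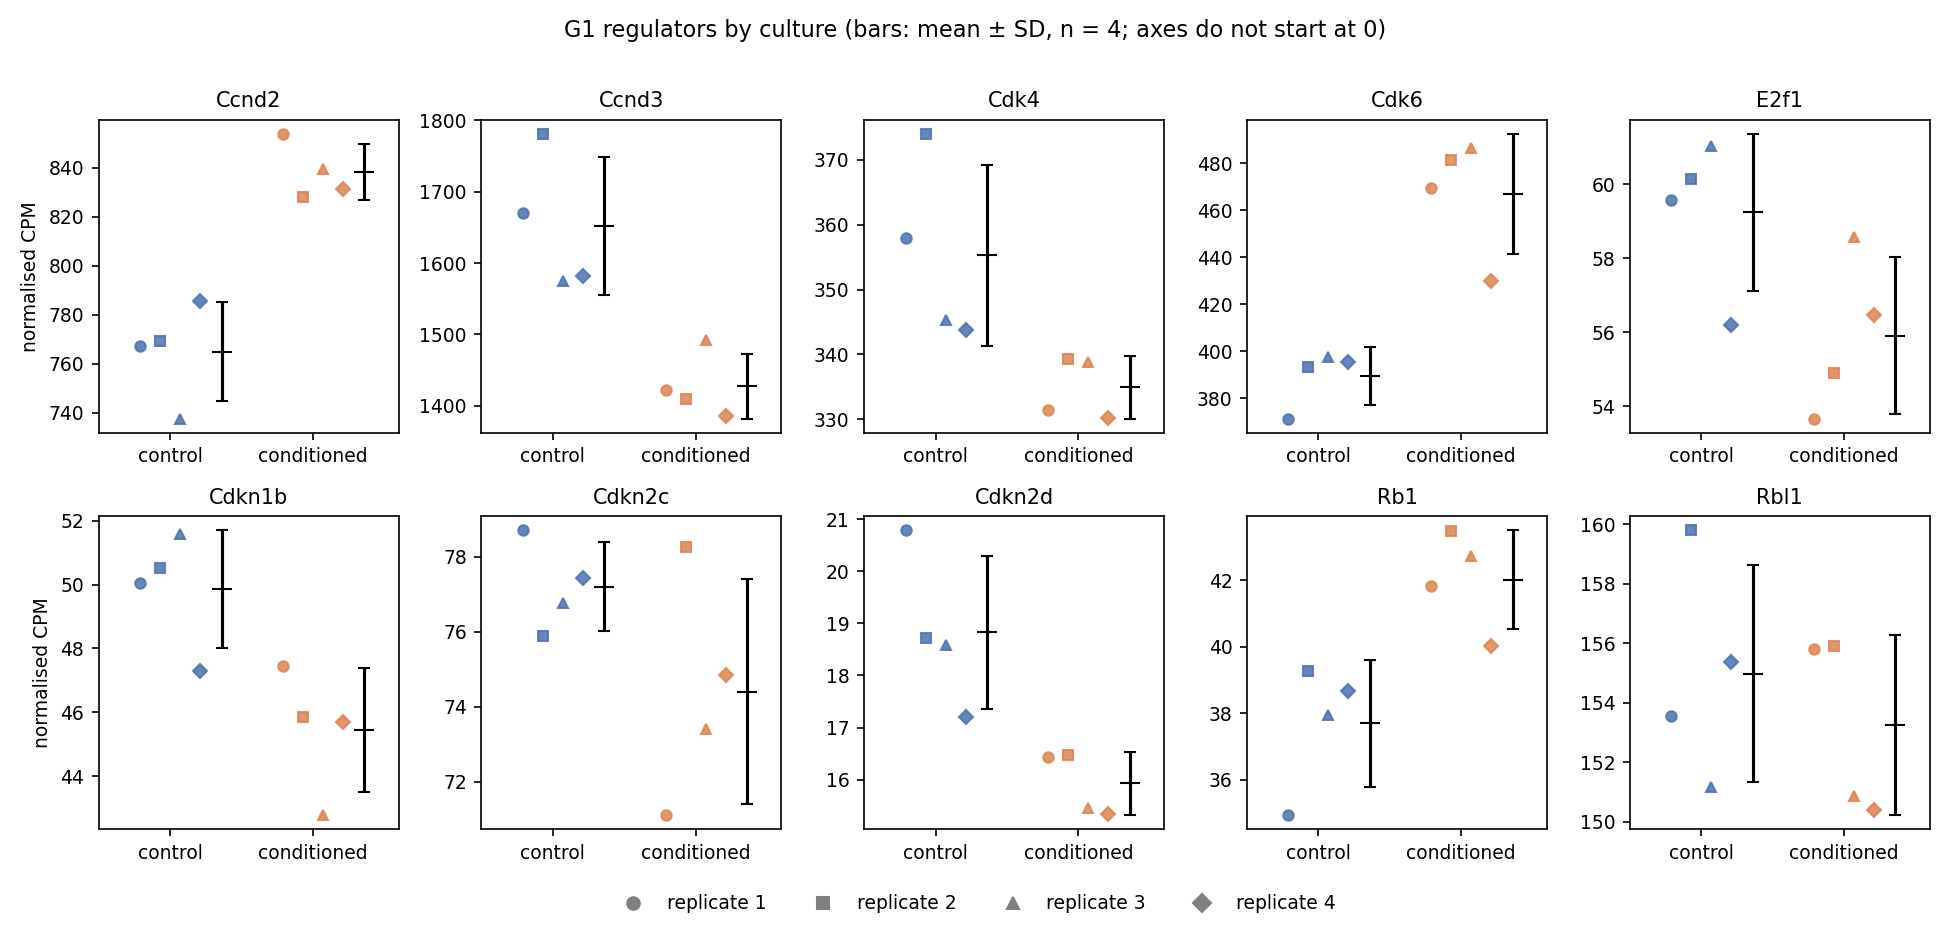
Normalised CPM of the 10 G1 regulators in each culture; symbols mark the replicate number, colours the medium, and black bars the mean ± SD (n = 4). Cdk6 and Ccnd2 lay higher in all 4 osteoclast-conditioned cultures (430 to 487 and 828 to 854) than in any control culture, and Ccnd3 lay lower (1386 to 1492); the Cdkn1b, Cdkn2c, Rbl1 and E2f1 points of the media overlap.

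Among the D-type cyclins, Ccnd3 (ENSMUSG00000034165; chromosome 17, 47505051 to 47599691 in GRCm38, plus strand) was the most abundant G1 gene of the set. Its normalised CPM was 1670, 1781, 1575 and 1581 in control replicates 1 to 4, and 1422, 1410, 1492 and 1386 in osteoclast-conditioned replicates 1 to 4. The highest osteoclast-conditioned culture was below the lowest control culture, and control replicate 2 was the highest of all. The means were 1652 ± 96.3 and 1428 ± 45.6 (SD, n = 4 each); on the log2 scale the difference was -0.21 ± 0.03 (SE; adjusted p from edgeR = 7.88e-05). This change was larger in size than that of 80.3% of tested genes. Exons of Bysl on the opposite strand cover 4.11% of the Ccnd3 exon length.

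Ccnd2 (ENSMUSG00000000184; chromosome 6, 127125162 to 127152193, minus strand) encodes the other D-type cyclin of the set. Control replicates 1 to 4 had 767, 769, 738 and 786 normalised CPM, and osteoclast-conditioned replicates 1 to 4 had 854, 828, 840 and 831. The groups did not overlap, and the spread was small in both (20.1 and 11.5, SD, n = 4 each). The mean went from 765 to 838; on the log2 scale the difference was 0.13 ± 0.03 (SE; adjusted p from edgeR = 0.000209). Ccnd1, the remaining D-type cyclin, was much less abundant, with 37 ± 2.26 and 39.1 ± 1.43 normalised CPM, and its log2 fold change of 0.08 (SE 0.05) did not pass the test (edgeR adjusted p = 0.245). Exons of a neighbour cover 23.4% of its exon length. Per kilobase of exon, Ccnd1 stood at 7.87 ± 0.480 in control medium, against 81.3 ± 2.13 for Ccnd2 and 188 ± 11 for Ccnd3 (normalised CPM per kb, SD, n = 4 each).

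The opposite changes altered the make-up of the D-cyclin pair. Of the counts per exon length of Ccnd2 and Ccnd3 together, Ccnd2 took 30%, 28.7%, 30.4% and 31.7% in control replicates 1 to 4. It took 35.9%, 35.4%, 34.4% and 35.9% in the osteoclast-conditioned ones. A share within a culture does not depend on how libraries are scaled. The mean share rose from 30.2% ± 1.21 to 35.4% ± 0.693, by 5.20 percentage points (two-sided exact permutation test, p = 0.0286, the smallest that 4 against 4 cultures allow; adjusted p = 0.0381 over the 4 shares examined, higher in 4 of 4 cultures). Because Ccnd2 was higher and Ccnd3 lower without overlap, the shares had to separate. This p-value therefore adds no evidence to the results of the single genes. The summed level of the pair was 270 ± 11.6 normalised CPM per kb in control and 252 ± 5.68 in osteoclast-conditioned medium, and the ranges overlapped (258 to 285 and 246 to 259).

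The kinases showed the same kind of contrast. Cdk6 (ENSMUSG00000040274; chromosome 5, 3341485 to 3531008, plus strand) had 371, 393, 398 and 395 normalised CPM in control replicates 1 to 4. It had 469, 481, 487 and 430 in osteoclast-conditioned replicates 1 to 4. Osteoclast-conditioned replicate 4 was the lowest of its group and still above every control culture. The mean went from 389 ± 12.2 to 467 ± 25.6 (SD, n = 4 each); on the log2 scale the difference was 0.26 ± 0.03 (SE; adjusted p from edgeR = 2.41e-06), larger in size than that of 86.6% of tested genes. Without both control replicate 2 and osteoclast-conditioned replicate 4 the call held, as it did in each other alternative fit, with log2 fold changes from 0.24 to 0.31.

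Cdk4 (ENSMUSG00000006728; chromosome 10, 127063534 to 127067920, plus strand) encodes the other catalytic partner of D-type cyclins. Control replicates 1 to 4 had 358, 374, 345 and 344 normalised CPM, and osteoclast-conditioned replicates 1 to 4 had 331, 339, 339 and 330. The groups did not overlap, but the gap between them was narrow and control replicate 2 stood highest. The log2 difference was -0.09 ± 0.03 (SE; adjusted p from edgeR = 0.0203). The call was lost on leaving out any of 3 cultures: control replicate 1 (adjusted p = 0.0640), control replicate 2 (0.0727) and osteoclast-conditioned replicate 1 (0.0749). Leaving out control replicate 2 together with osteoclast-conditioned replicate 4 gave -0.05 (adjusted p = 0.112). Exons of Tspan31 on the opposite strand cover 19.7% of the Cdk4 exon length, and the strand setting of the counting is not given in the sources used here. Tspan31 had 4490 counts in total and Cdk4 49728, and how many reads they share was not measured.

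Cdk6 took 19.4%, 19.6%, 21.1% and 21.1% of the pair's counts per exon length in control replicates 1 to 4, and 24.8%, 24.8%, 25.0% and 23.2% in osteoclast-conditioned replicates 1 to 4. The mean share went from 20.3% ± 0.912 to 24.4% ± 0.820, a difference of 4.14 points (two-sided exact permutation test, p = 0.0286; adjusted p = 0.0381, higher in 4 of 4 cultures). As for the cyclins, opposite changes without overlap fixed this outcome, so the p-value adds no evidence to the single-gene results. The summed level of Cdk4 and Cdk6 was 137 ± 4.18 and 136 ± 3.18 normalised CPM per kb (SD, n = 4 each), so the means differed by less than the spread between cultures.

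**Figure D2:**
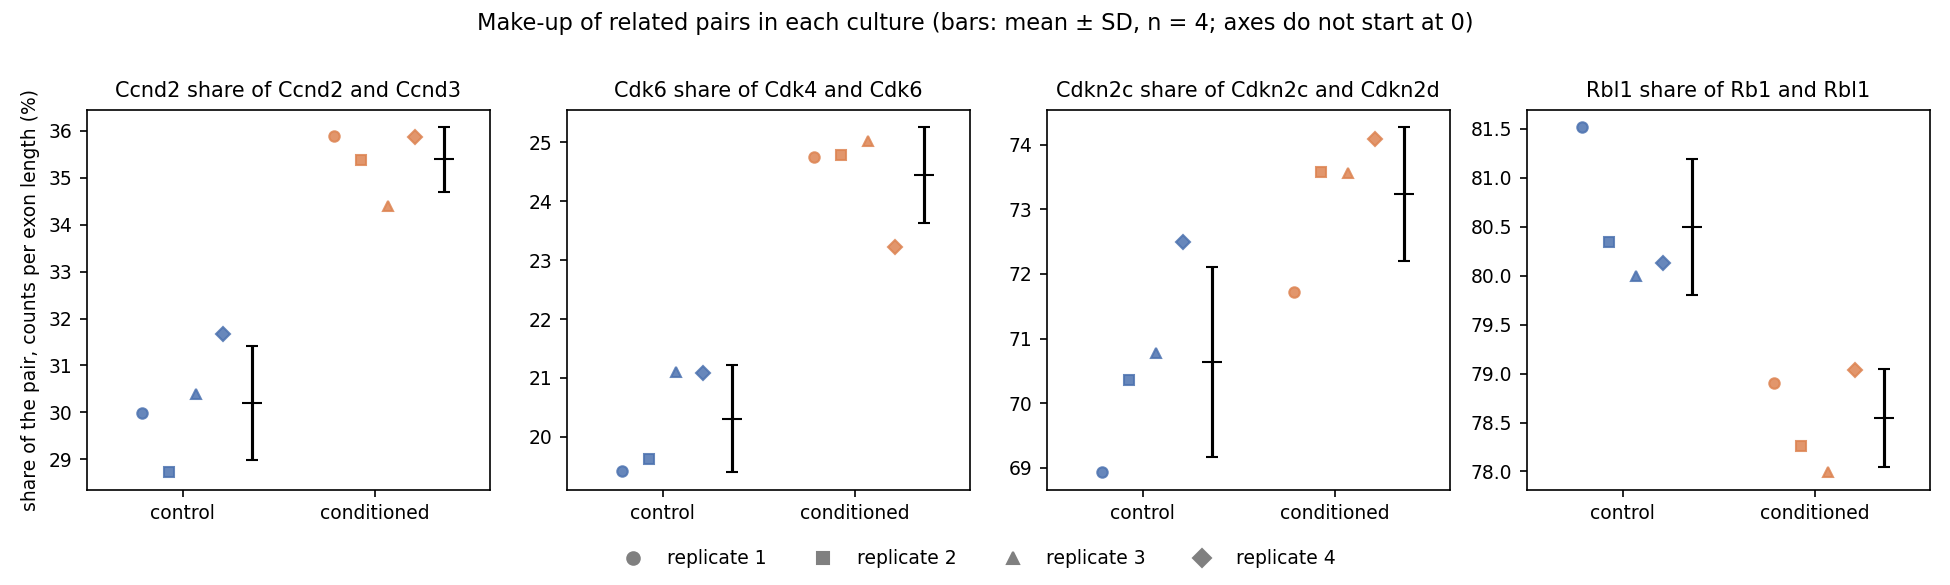
Share of each related pair, in counts per exon length (%), taken by the gene named first, for each culture (symbols: replicate; bars: mean ± SD, n = 4). The Ccnd2 and Cdk6 shares are higher and the Rbl1 share lower in every osteoclast-conditioned culture, while the Cdkn2c shares of the media overlap.

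The upstream sequences of the kinases are shown because these genes lie in 1 family and moved in opposite directions. RefSeq promoter windows (GRCm38.p6, 250 bases before to 50 after the start of a RefSeq transcript) were found for 8 of the 10 genes, with 10 entries; Ccnd2 and Rb1 had none. The RefSeq start of Cdk4 lies 1 base from the GENCODE gene start given above, but that of Cdk6 lies 2408 bases inside the GENCODE gene, so a gene-start window is set beside an internal one. The 250 bases before the RefSeq start, 5′ to 3′ on the gene's strand, lie at chr10:127063285-127063534 (Cdk4) and chr5:3343643-3343892 (Cdk6), both on the plus strand, and capitals mark the E-box CACGTG, the hexamer that Myc binds with its partner Max.
Cdk4: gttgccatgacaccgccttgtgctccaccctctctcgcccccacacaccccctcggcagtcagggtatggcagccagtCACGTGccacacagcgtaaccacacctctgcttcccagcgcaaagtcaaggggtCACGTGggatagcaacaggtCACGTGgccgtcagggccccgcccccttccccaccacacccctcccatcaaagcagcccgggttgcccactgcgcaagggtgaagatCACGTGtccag
Cdk6: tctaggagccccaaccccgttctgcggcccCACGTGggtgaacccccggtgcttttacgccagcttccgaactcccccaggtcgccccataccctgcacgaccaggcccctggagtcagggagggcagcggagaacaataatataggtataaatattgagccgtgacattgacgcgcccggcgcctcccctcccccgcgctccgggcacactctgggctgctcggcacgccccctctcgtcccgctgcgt

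The Cdk4 window held 4 E-boxes, with first bases at -172, -118, -98 and -11 from the RefSeq start, and the Cdk6 window held 1, at -220. CACGTG reads the same on both strands, so each site was counted once. Of all 32851 promoter windows of the same length, 7.15% held at least 1 E-box and 0.0244% held 4 or more. The cut-off of 4 is the number found in the Cdk4 window, so that share is a description and not a test. Cdkn2c also had an E-box, in the window of a start 1817 bases inside the GENCODE gene. The E2F motifs TTTCCCGC and TTTGGCGC, searched on both strands, were in none of the 10 windows. Only 1.56% of all windows held them, so a set this small with no match says nothing about the genes. Other forms of the E2F motif were not searched, and the Rbl1 window holds such a form, TTTCGCGC. The windows are therefore not shown to lack E2F motifs. The motif TTTGAA, bound by MuvB complexes, was in none of the 10 windows, against 17.9% of all windows. So few windows cannot show that it is less frequent in these genes. The upstream bases of 5 of the 10 windows, those of Cdk6, E2f1 and Cdkn2c among them, lie wholly inside the GENCODE gene, and the bases before the GENCODE start of these 3 genes were not searched. These matches describe letters in the windows and nothing about binding. Myc itself, looked up after its values were seen, had 810 ± 36.5 and 748 ± 30.9 normalised CPM; on the log2 scale the difference was -0.11 ± 0.03 (SE; adjusted p from edgeR = 0.00996), with overlapping groups. The part of Myc in the changes of Cdk4 and Cdk6 was not tested.

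Among the inhibitors of the set, Cdkn2d (ENSMUSG00000096472; chromosome 9, 21288410 to 21291407, minus strand), an INK4 gene, fell most. Control replicates 1 to 4 had 20.8, 18.7, 18.6 and 17.2 normalised CPM, and osteoclast-conditioned replicates 1 to 4 had 16.4, 16.5, 15.5 and 15.3. All osteoclast-conditioned cultures were below all controls. The log2 difference was -0.24 ± 0.07 (SE; adjusted p from edgeR = 0.00639) and rested on 2498 counts in total, the fewest of the set. Cdkn1b (ENSMUSG00000003031; chromosome 6, 134920401 to 134925513, plus strand), which encodes the CIP/KIP inhibitor p27, had 50, 50.5, 51.6 and 47.3 normalised CPM in control replicates 1 to 4 and 47.5, 45.9, 42.8 and 45.7 in the osteoclast-conditioned ones. Osteoclast-conditioned replicate 1 and control replicate 4 overlapped. Its log2 fold change of -0.13 (SE 0.04) had an edgeR adjusted p of 0.0204, and the call was lost with DESeq2 (adjusted p = 0.0510) and on leaving out control replicate 1 (0.0517), its fellow replicate 3 (0.0618) or replicate 3 of the other medium (0.106).

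Cdkn2c (ENSMUSG00000028551; chromosome 4, 109660876 to 109667189, minus strand), the more abundant INK4 gene of the set, had 77.2 ± 1.19 and 74.4 ± 2.99 normalised CPM (SD, n = 4 each). Its log2 fold change of -0.05 (SE 0.04) did not pass the test (edgeR adjusted p = 0.279). The Cdkn2c share of the INK4 pair was 70.6% ± 1.47 in control and 73.2% ± 1.04 in osteoclast-conditioned medium. Control replicate 4, at 72.5%, exceeded osteoclast-conditioned replicate 1, at 71.7%. The exact permutation test gave p = 0.0571 (adjusted p = 0.0571, two-sided), so the difference of 2.59 points was not shown to exceed the spread. Summed over the 3 inhibitors, the level per length was 50.2 to 53.5 normalised CPM per kb in control cultures and 46.6 to 49.7 in osteoclast-conditioned cultures.

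Rb1 (ENSMUSG00000022105; chromosome 14, 73183673 to 73325822, minus strand), the retinoblastoma gene, was the least abundant member per length and was higher in osteoclast-conditioned medium. Control replicates 1 to 4 had 34.9, 39.3, 37.9 and 38.7 normalised CPM and osteoclast-conditioned replicates 1 to 4 had 41.8, 43.5, 42.7 and 40.0. The groups did not overlap, and control replicate 1 was the lowest culture. The log2 difference was 0.15 ± 0.05 (SE; adjusted p from edgeR = 0.0125), and the call was lost without control replicate 1 (adjusted p = 0.0605). Exons of annotated neighbours on the opposite strand cover 14.9% of the Rb1 exon length. Of these neighbours, Lpar6 lies in the Rb1 span and was listed at 0, while Rcbtb2 had 7084 counts in total.

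Rbl1 (ENSMUSG00000027641; chromosome 2, 157145893 to 157204534, minus strand) encodes p107, a pocket protein that binds E2F4 and E2F5. It ranged from 151 to 160 normalised CPM in control and from 150 to 156 in osteoclast-conditioned cultures, and its log2 difference was -0.02 ± 0.03 (SE; adjusted p from edgeR = 0.7). The Rbl1 share of the Rb1 and Rbl1 pair was 81.5%, 80.3%, 80.0% and 80.1% in control replicates 1 to 4 and 78.9%, 78.3%, 78.0% and 79.0% in the others. It was lower in 4 of 4 osteoclast-conditioned cultures, with a difference of -1.95 points (two-sided exact permutation test, p = 0.0286; adjusted p = 0.0381). Rbl2, which encodes p130, differed by 0.04 ± 0.06 in log2 (SE), which did not pass the test (edgeR adjusted p = 0.607).

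E2f1 (ENSMUSG00000027490; chromosome 2, 154559407 to 154569892, minus strand) encodes an activating E2F. Its level was 56.2 to 61.0 normalised CPM in control and 53.7 to 58.6 in osteoclast-conditioned cultures, with overlap. The log2 fold change of -0.08 (SE 0.04) had an unadjusted p of 0.0481 and an edgeR adjusted p of 0.122, and it passed the threshold only when libraries were scaled by their totals (adjusted p = 0.0477).

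Per kilobase of exon, the order of the 10 genes in control medium was Ccnd3, Cdk4, Ccnd2, Cdkn2c, Cdk6, Rbl1, E2f1, Cdkn2d, Cdkn1b and Rb1, from 188 to 6.27 normalised CPM per kb. Culture ranges overlapped between Cdkn2c and Cdk6, between Cdk6 and Rbl1, and between Cdkn2d and Cdkn1b. No other neighbours in that order overlapped. In osteoclast-conditioned medium Cdk6, at 33.4 ± 1.83, stood above Cdkn2c, at 27.7 ± 1.11, with no overlap, and the rest of the order was the same. Gene length matters here: with the longest transcript as length, Cdk6 also stood above Rbl1 and Cdkn2c in control medium (33.8, 31.9 and 31.2 normalised CPM per kb).

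**Figure D3:**
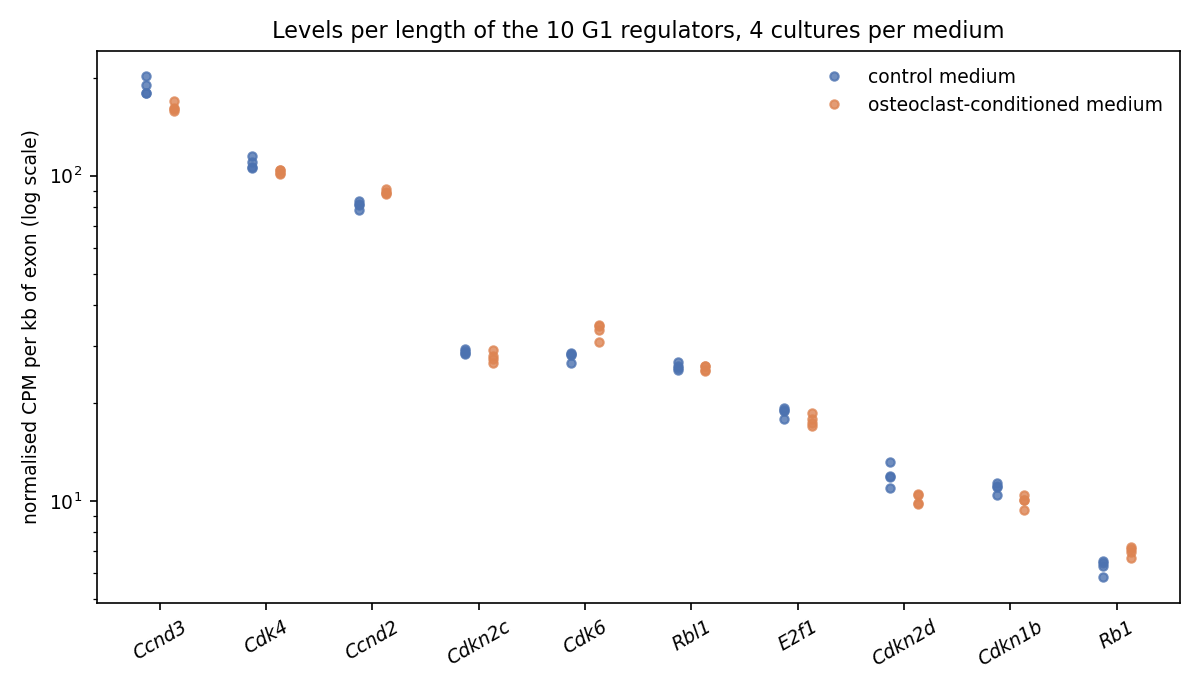
Levels of the 10 G1 regulators per kilobase of merged exons (normalised CPM per kb, log axis) in the 4 control and 4 osteoclast-conditioned cultures, ordered by the control mean. Ccnd3 is highest and Rb1 lowest in both media, and Cdk6 passes Cdkn2c in osteoclast-conditioned medium.

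Cultures of 1 medium were close for most members. The coefficient of variation was 1.54% (Cdkn2c) to 7.83% (Cdkn2d) among control cultures and 1.37% (Ccnd2) to 5.48% (Cdk6) among osteoclast-conditioned cultures. The genes lost without control replicate 1 were Cdk4, Cdkn1b and Rb1. Without control replicate 2 and osteoclast-conditioned replicate 4 together, 6 were called, and Cdk4 was the gene lost. Ccnd2, Ccnd3, Cdk6 and Cdkn2d were called under all 18 alternatives of the fit.

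Further parts of the G1/S machinery were read from a list of 46 genes, of which 42 were tested; 4 were called higher and 16 lower, where 15.7% and 14.8% of all tested genes were. The median log2 fold change was -0.06, against -0.01 over all tested genes. Fbxw7 and Fbxo31, substrate receptors of SCF ubiquitin ligases, lie wholly inside other annotated genes and had 0 counts, which gives no measure of their expression. The partners that act after the D-type cyclins were lower. Ccne1 and Ccne2, the E-type cyclins, fell from 25.5 ± 0.587 to 21.4 ± 1.75 and from 40.4 ± 1.08 to 34.6 ± 2.34 normalised CPM (SD, n = 4 each; log2 fold changes -0.26, SE 0.06, and -0.22, SE 0.05). Their kinase Cdk2 fell from 114 ± 3.69 to 104 ± 3.51 (-0.14 ± 0.03 in log2, SE; adjusted p from edgeR = 0.00233). With Ccna2, 4 of the 5 tested genes in that group were called lower and 0 higher. Ccna2 and Ccne2 overlap exons of neighbouring genes by 12.5% and 17.4% of their exon length.

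Among the remaining inhibitors 1 of 4 tested genes, Cdkn3, was called lower (log2 fold change -0.30, SE 0.07). For this and the next 2 groups, the shares over all tested genes were 15.7% higher and 14.8% lower. Cdkn3 encodes a phosphatase that acts on CDKs rather than an INK4 or CIP/KIP protein. Cdkn2a, whose locus encodes both an INK4 protein and ARF, was abundant at 169 ± 6.15 and 165 ± 2.93 normalised CPM and differed by -0.04 ± 0.03 in log2 (SE; adjusted p from edgeR = 0.38). The counts are per gene, so its products cannot be told apart. Cdkn1a, which encodes p21, differed by -0.06 ± 0.05 in log2 (SE; adjusted p from edgeR = 0.355). Of the 10 pocket protein, E2F and DP genes, 1 was called higher (Tfdp2, an E2F partner, log2 fold change 0.15, SE 0.04) and 2 lower (E2f2, an activating E2F, -0.14, and Tfdp1, -0.11). Of 7 genes for MuvB subunits and the proteins that act with or on them in repressing or activating cell cycle genes, 1 was called in each direction. That is near the shares over all tested genes. The higher was Dyrk1a (0.19, SE 0.03), a kinase that promotes DREAM assembly, and the lower Mybl2 (-0.15, SE 0.03), which encodes B-Myb, the partner with which MuvB activates genes in cycling cells. Neither encodes a subunit of the MuvB core.

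The counts of the next groups, each of few genes, stand beside 15.7% of all tested genes called higher and 14.8% lower. Of 5 genes around CDK activation, 1 was called higher (Mnat1, an assembly factor of the CDK-activating kinase, log2 fold change 0.17, SE 0.05) and 2 lower (Cdk7, the catalytic subunit of that kinase, -0.14, and Cdc25a, a phosphatase that activates CDK2, -0.16). Of 8 tested ubiquitin ligase genes 4 were called lower and 0 higher, the largest fall being that of Fzr1 (-0.19, SE 0.03), which encodes an activator of the anaphase-promoting complex in G1; the others were Rbx1 (-0.18), Skp2 (-0.18), whose product marks p27 for degradation, and Skp1a (-0.09). Gsk3b, a kinase that marks D-type cyclins for degradation, was called higher (0.16, SE 0.03), as 1 of 3 upstream genes, and the other two, Myc and Max, were called lower.

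**Figure D4:**
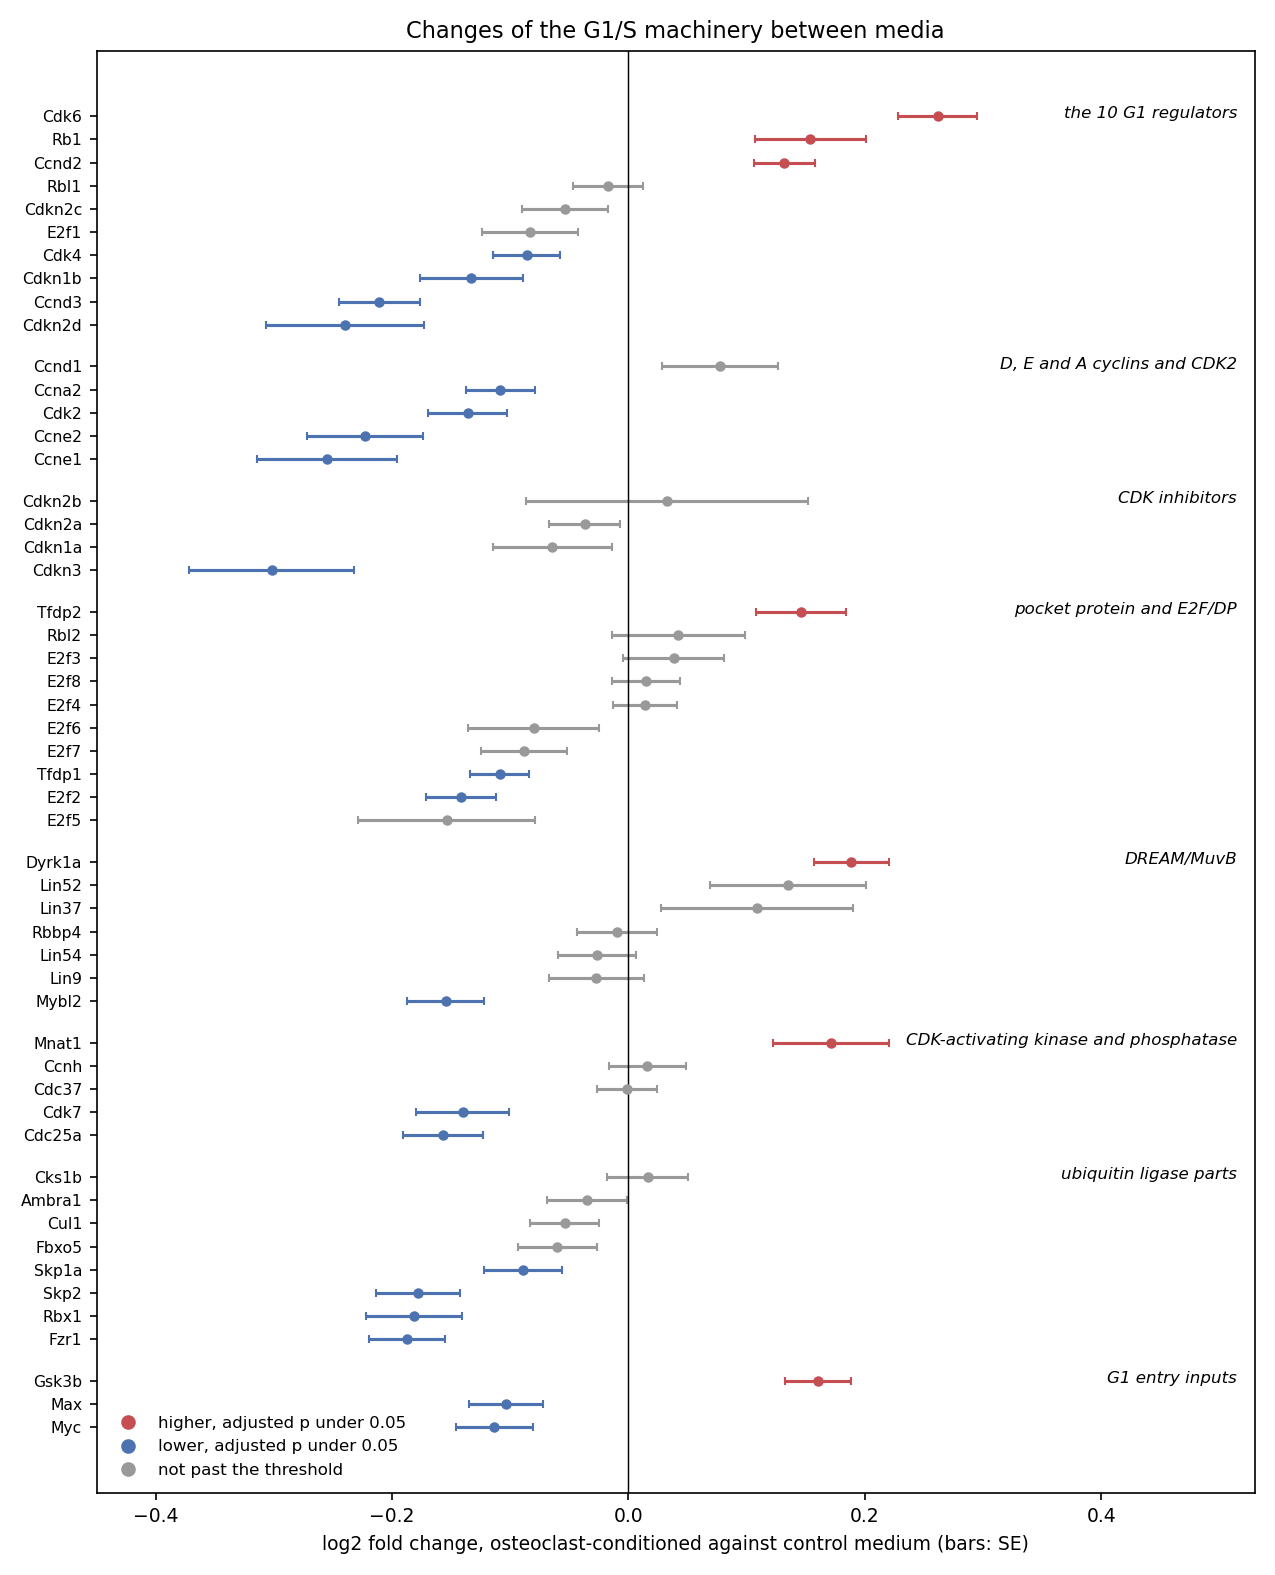
Log2 fold changes (osteoclast-conditioned against control medium, bars SE) of the 10 G1 regulators and the 42 other tested genes of the G1/S machinery, grouped by role; red and blue mark genes called higher or lower at an edgeR adjusted p under 0.05. All values lie between the fall of Cdkn3 (-0.30) and the rise of Cdk6 (0.26). The groups of other cyclins with Cdk2 and of ubiquitin ligase genes hold 4 called falls each and 0 called rises. The pocket protein, E2F and DP group holds 2 falls and 1 rise, and the DREAM/MuvB group 1 of each. Of all tested genes, 14.8% were called lower and 15.7% higher.

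Textbook E2F target genes were examined because they lie downstream of the RB and E2F members. Of 37 such genes 34 were tested, 3 called higher and 15 lower, where 15.7% and 14.8% of all tested genes were called. The median log2 fold change was -0.08, against -0.01 over all tested genes. With library totals alone as the scaling, 22 of the 34 were called lower and 3 higher. That scaling shifted the whole table down: the median over all tested genes was -0.03. Of all called genes, 40.7% were then higher, against 51.6% in the main fit. The larger count is thus not particular to these genes. Cdt1, Gins2 and Tk1 had 0 counts and lie inside other annotated genes. The largest falls were those of Orc1, a subunit of the origin recognition complex (log2 fold change -0.28, SE 0.05), Cdk1, the mitotic kinase (-0.26, SE 0.03), and Rrm2, a subunit of ribonucleotide reductase (-0.25, SE 0.03). The rises were those of Ezh2, a histone methyltransferase (0.11, SE 0.02), Dnmt1, the maintenance DNA methyltransferase (0.09, SE 0.03), and Pole, a replicative polymerase (0.09, SE 0.03). The share of cells in each cycle phase was not measured, and its part in these differences was not tested.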

How the data were processed

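The deposited table holds raw read counts per Ensembl gene ID, with no normalization by the authors. Per the submitters' processing notes, STAR 2.7.5a, featureCounts 2.0.1 and the mm10 build were used; annotation, strand and overlap settings are not given in the sources used here. Each column header equals the description of its sample, and 0 columns were unmatched. Names, positions and merged exon lengths came from GENCODE M21 (21817 of 21859 IDs matched), which may differ from the authors' annotation.

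Genes passing filterByExpr (10729) were scaled by TMM and fitted with edgeR 4.0.16 (R 4.3.3, glmQLFit robust, glmQLFTest, medium as the only term), with Benjamini-Hochberg adjustment over all of them and a threshold of 0.05. Standard errors are the absolute change over the square root of F. In simulated counts of the same design (10675 genes run), 28%, 78%, 90% and 98% of genes changed 1.1-, 1.2-, 1.5- and 2-fold were called, and 5.16% of calls were false. With only 50 genes changed per fold, against 3273 genes called in the data, these rates need not carry over to the main fit. Shares of pairs were tested by two-sided exact permutation over the 8 cultures (scipy 1.17.1). Chi-square per degree of freedom between cultures of a medium was at least 1.38, so each was kept as a replicate.

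The 10 genes and the lists were chosen with earlier results of these data known. All 10 are named. Of the other G1/S list, 7 preset genes and up to 4 called genes per direction with the largest change are named, and of the E2F list up to 3 per direction. Ccna2, E2f2, Tfdp1, Mybl2, Cdk7, Cdc25a, Rbx1, Skp2, Skp1a, Myc and Max were named after their values were seen. Alternatives were other scalings, low-count filters, DESeq2 1.42.0, limma-voom (limma 3.58.1), no robust estimation, a replicate block, other gene lengths and leaving out each culture. Leaving out control replicate 2 with osteoclast-conditioned replicate 4, and ordering genes by longest-transcript length, were added after seeing the data. Promoter windows came from RefSeq (GRCm38.p6).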

Additional observations from a re-analysis of the deposited data

Results flagged for a closer look

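For the 10 G1 genes, the other genes named by rule and the 4 pair shares, the highest or lowest of the 4 cultures of a medium was compared with the other three by its gap to the nearest culture over the whole range. Of 66 such groups, 5 had a culture standing apart beyond the 95% critical value, where chance gives about 1 in 20. Cdk6 was lowest in control replicate 1, at 371 normalised CPM against 393 to 398 (ratio 0.836). The Cdk6 share of Cdk4 and Cdk6 had its minimum in osteoclast-conditioned replicate 4, 23.2% against 24.8 to 25.0% (0.850). Cdk6 was called higher without either of these cultures (log2 fold changes 0.24 and 0.30). Gsk3b was lowest in control replicate 4, at 167 normalised CPM against 175 to 176 (0.865). Among osteoclast-conditioned cultures, replicate 3 had the least Ezh2, 581 against 595 to 596 (0.947), and replicate 4 the least Cdk1, 113 against 123 to 124 (0.908). The causes were not tested.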

How the results depend on the processing

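Over the 18 alternatives of the fit, no called gene among the 10 G1 genes or those named by rule changed direction. The number of the 10 G1 genes called lower was 4 in the main fit and ran from 2 to 5, with 2 to 4 when 1 culture was left out (2 without control replicate 1); the number called higher was 3, and 2 without control replicate 1. Called genes overall numbered 3273, and 2635 to 3578 when 1 culture was left out. The replicate numbers shared by the titles were not taken as pairs: deviations of same-numbered cultures correlated from -0.0507 to 0.143, and 3 of the 8 cultures correlated best with their own number. With the replicate number as a block, 3446 genes were called, including 3 of the 10 higher and 4 lower, and no other call among the 10 changed. The 4 pair shares kept their direction without any 1 culture and with other lengths: 4.32 to 5.69 points for Ccnd2, 3.53 to 5.90 for Cdk6, 1.95 to 3.21 for Cdkn2c and -2.11 to -1.61 for Rbl1. Of the 10 G1 genes, depth limits Cdkn2d most, with 263 to 406 counts per culture.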
